A study of Bos taurus with 4 samples.

Results

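The aminoacyl-tRNA synthetases are the enzymes that load each amino acid onto its transfer RNA (tRNA), and their transcripts were followed here across muscle samples of 2 cattle breeds. A probe was taken as a member when it was not a control spot and when its RefSeq accession belonged to a bovine gene with a synthetase symbol, that is a letter for the amino acid followed by ARS, with or without the suffix 1 or 2, or the multi-letter symbols of the glutamyl-prolyl and phenylalanyl enzymes. *TARS3*, a further threonyl enzyme, falls outside this rule by its suffix and is described with the partner genes. The rule uses no measured value, although it was chosen with earlier results of these data known. It gave 75 of the 43653 probes on the array, for 29 of the 11054 genes named on it, of which 18 (47 probes) encode cytosolic and 11 (28 probes) mitochondrial enzymes. *GARS1* and *KARS1*, which serve both compartments, and *QARS1* were counted as cytosolic. The reference gene table holds 37 such genes, and no probe was matched to *EARS2*, *EPRS1*, *IARS2*, *LARS2*, *PARS2*, *VARS1*, *VARS2* or *YARS2*.

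RNA came from the m. semitendinosus of 15-month-old bulls of the beef breed Hereford (HER) and the dairy breed Holstein-Friesian (HF). Each of 4 dual-colour Agilent bovine arrays carried 1 HER and 1 HF sample, so that each breed was represented by 4 samples, described as biological replicates. The labels place HER in Cy3 and HF in Cy5 on every array but also mention exchanged dyes, and the signs in the study's own tables place HER in Cy5. The breed behind each dye was therefore not settled, and every value below is the log2 ratio of Cy5 over Cy3. Since all arrays had 1 dye orientation, a dye effect and a breed difference cannot be told apart.

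The median signal of the arrays was 129 to 160.5 in Cy5 and 77 to 138 in Cy3 over a background of 37 to 41, no spot was saturated, and all arrays lay on 1 slide. Of 9 skeletal muscle fibre markers, 7 were measured, and each was well above background in both channels on every array. Fewer cells of a type and less RNA per cell cannot be told apart in such bulk RNA. Of the markers of other cells, none of 4 adipocyte, 4 endothelial or 3 blood genes passed the test. Fibroblast markers had 2 of 6 genes lower, *COL1A1* and *COL3A1* (the latter also in the study's own lists), beside 1.52% of named genes. Without a call, *COL1A2* and *LUM* of the same list averaged -1.34 and -0.77, below 0 on every array. *PDGFRA* and *DCN* had means of 0.49 and 0.42, also without a call. Macrophage markers had 1 of 5 higher, *CD5L*, beside 2.91% of named genes. Of its 2 tested probes 1 was called, and the other averaged 0.30. The medians of the 2 lists were -1.05 and 0.50, and the part of these cells in the synthetase values was not tested.

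Each synthetase activates its amino acid with ATP and then passes it to the matching tRNA, and some members also remove a wrongly attached amino acid. The enzymes form structurally unrelated classes, I and II, and several cytosolic ones assemble with scaffold proteins into a multisynthetase complex. Mitochondria load their own tRNAs with largely separate enzymes encoded in the nucleus. Genes of many cytosolic synthetases are known targets of ATF4, the transcription factor of the amino acid response.

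No synthetase gene passed the test. Each gene was represented by its brightest tested probe, and all 29 of these probes were well above background in both channels on all 4 arrays. With limma and Benjamini-Hochberg adjustment over all 32606 tested probes, 0 of 29 genes were higher and 0 lower in Cy5 at an adjusted p under 0.05, and none of the 72 tested synthetase probes was called. Over all tested probes 3.31% were called, and of 9425 named genes 2.91% were higher and 1.52% lower. The smallest adjusted p among the synthetase genes was 0.0587, for *CARS2*. At an unadjusted p under 0.05 there were 7 genes, 2 higher and 5 lower, or 24.1% of the synthetase genes against 28.3% of all named genes. The methods' own test, named with the alternatives below, passed 3 genes at its p threshold (against 20% of named genes). Only *CARS2* met that test's p and fold thresholds together (against 11.3% of named genes). After Benjamini-Hochberg adjustment this test called 0 synthetase genes, but also 0 probes over the whole array, so that count cannot set the family apart.

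The 95% intervals of the fit give the range of each difference under the loess normalization. The interval of every one of the 29 genes lay within 2-fold in either direction, and that of 22 genes within 1.5-fold. With each array centred on its median instead, 14 of the 29 intervals lay within 2-fold. The interval included 0 for 22 genes, lay above 0 for 2 and below 0 for 5. Its half-width ranged from 0.21 to 0.48 on the log2 scale, with a median of 0.29. At the thresholds used in the study, an unadjusted p of at most 0.05 and a fold of at least 1.3, applied to the limma fit, 0 synthetase genes were higher and 2 were lower, *CARS2* and *GARS1*. These were 6.9% of the family, while 10.6% of named genes were higher and 7.18% lower at those thresholds.

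**Figure D1:**
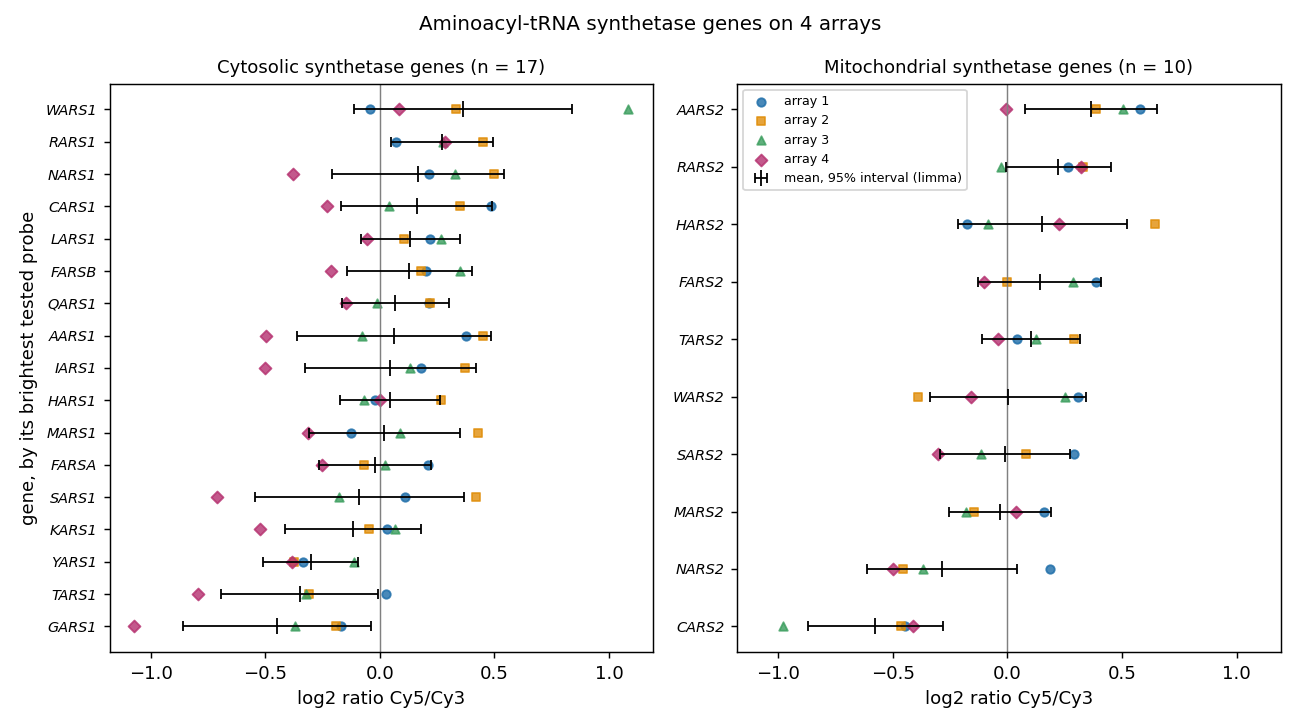
The 17 cytosolic and 10 mitochondrial synthetase genes given by name, with their log2 Cy5/Cy3 ratios on the horizontal axis, each at its brightest tested probe, with 1 symbol per array and the mean with its 95% interval from limma. Array 4 gives the lowest cytosolic values, down to -1.07 for *GARS1*, and the mitochondrial *CARS2* lies below 0 on every array.

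Signs were also compared array by array, each gene by its brightest tested probe. Only *RARS1* was above 0 on all 4 arrays (3.45% of the family, against 20.4% of named genes), while 4 genes, among them *CARS2*, *YARS1* and *GARS1*, were below 0 on all 4 (13.8%, against 13.8% of named genes). The other 24 genes had mixed signs. The mean over arrays was above 0 for 18 genes and below 0 for 11.

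Among the mitochondrial enzymes, *CARS2*, which loads cysteine, stood lowest. Its log2 ratios on arrays 1 to 4 were -0.45, -0.47, -0.98 and -0.41. All 4 arrays were below 0 and array 3 lay apart from the others. The mean was -0.58 ± 0.27 (SD, n = 4; 1.49-fold), with an adjusted p of 0.0587 in limma and a 95% interval of -0.87 to -0.28. Its other probe had -0.07, -0.27, -0.63 and -0.55, and averaged -0.38 ± 0.26, with an adjusted p of 0.119. Array 3 did not lie apart at that probe.

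*AARS2*, which loads alanine in mitochondria, stood highest among them. Its ratios were 0.58, 0.39, 0.50 and -0.01, high on arrays 1 to 3 and near 0 on array 4, and the mean was 0.37 ± 0.26 (adjusted p 0.128). The gene's other tested probes averaged 0.12, 0.12 and -0.11, the last with -0.28, -0.07, -0.07 and -0.01. The probes of *AARS2* thus disagreed in sign and in size. *RARS2*, for mitochondrial arginine, had 0.26, 0.33, -0.03 and 0.32, a mean of 0.22 ± 0.17 (adjusted p 0.215). *NARS2*, for asparagine, had 0.18, -0.46, -0.37 and -0.50, a mean of -0.29 ± 0.32 (adjusted p 0.255). For *NARS2* all 3 probes had a mean below 0, from -0.34 to -0.26.

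The means of the remaining mitochondrial genes given here lay between -0.03 and 0.15. *HARS2*, for histidine, had -0.18, 0.64, -0.08 and 0.23, while its second probe stayed between -0.14 and -0.04. *TARS2*, for threonine, had 0.04, 0.29, 0.12 and -0.04, and its other probes averaged -0.01 and -0.02. *WARS2*, for tryptophan, had 0.31, -0.39, 0.25 and -0.16, a mean of 0.00 ± 0.34, with other probes at -0.02 and -0.06. These genes had no common sign across arrays. *FARS2* (phenylalanine), *SARS2* (serine) and *MARS2* (methionine) averaged 0.14 ± 0.23, -0.01 ± 0.26 and -0.03 ± 0.16.

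Of the 7 cytosolic synthetases measured from the multisynthetase complex, *RARS1*, which loads arginine, stood highest. Its ratios were 0.07, 0.45, 0.28 and 0.28, all above 0, with a mean of 0.27 ± 0.16 (adjusted p 0.137). Its second probe gave 0.16, 0.30, 0.45 and 0.22, a mean of 0.28 ± 0.13 (adjusted p 0.112). Both probes of *RARS1* were thus above 0 on every array.

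*LARS1*, the leucyl enzyme, which is also known as a leucine sensor of the mTORC1 pathway, had 0.22, 0.10, 0.27 and -0.06 at its brightest probe (mean 0.13 ± 0.14, adjusted p 0.41). Another *LARS1* probe gave -0.01, -0.79, -0.08 and -0.93, a mean of -0.45 ± 0.48 (adjusted p 0.201), and the remaining ones averaged 0.16 and -0.05. The probe means of this gene thus lay between -0.45 and 0.16. *QARS1*, the glutaminyl enzyme, had 0.21, 0.22, -0.01 and -0.15 (other probes -0.02 and -0.02). *MARS1*, the methionyl enzyme, had -0.13, 0.43, 0.09 and -0.31 (other probes -0.02 and 0.02). *KARS1* (lysine) and *IARS1* (isoleucine) averaged -0.12 ± 0.27 and 0.05 ± 0.38. Array 4 was the lowest of the arrays for each of these 4 genes, at -0.52 for *KARS1* and -0.50 for *IARS1*.

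The 11 cytosolic genes outside the complex ranged from -0.45 to 0.36. *YARS1*, the tyrosyl enzyme, had -0.34, -0.38, -0.12 and -0.38, a mean of -0.30 ± 0.13 (1.23-fold, adjusted p 0.0982), and its second probe averaged -0.14 ± 0.30. *GARS1*, which loads glycine, had -0.17, -0.19, -0.37 and -1.07, a mean of -0.45 ± 0.42 (adjusted p 0.17). Without array 4 the *GARS1* mean was -0.24. Its other probes gave -1.01 and -0.98 on array 4 and averaged -0.33 and -0.27. *TARS1*, for threonine, had 0.03, -0.31, -0.32 and -0.79, a mean of -0.35 ± 0.34 (adjusted p 0.195). For *GARS1* and *TARS1* array 4 was the lowest of the 4 by a wide margin. At the brightest *YARS1* probe it lay with arrays 1 and 2. The second *YARS1* probe had 0.06, -0.07, 0.03 and -0.59, so that array 4 was the lowest there too.

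*WARS1*, the tryptophanyl enzyme and a known interferon target, was the exception on another array. Its ratios were -0.04, 0.33, 1.08 and 0.08, so that array 3 alone stood far above the others (mean 0.36 ± 0.50, adjusted p 0.311). On array 3 its other probes gave 1.09, 0.97 and 0.67, and their means were 0.52, 0.40 and 0.25. All 4 probes were thus highest on array 3. *SARS1*, for serine, had 0.11, 0.42, -0.18 and -0.71, a mean of -0.09 ± 0.48, and its other probes averaged 0.03 and -0.19, with -1.22 on array 4 for the latter. *AARS1*, for alanine, had 0.38, 0.45, -0.08 and -0.50 at its brightest probe. Its other probes gave 0.04 and -0.07 on array 4, but were far dimmer (mean log2 intensities 6.74 and 6.71 against 13.37). *NARS1*, for asparagine, had 0.22, 0.50, 0.33 and -0.38 at its brightest probe, and 4 further probes averaged between 0.06 and 0.43. A nearly equally bright probe (mean log2 intensity 10.75 against 10.91) had 0.44, 0.80, 0.41 and 0.08. Another had 0.28, 0.57, 0.44 and 0.10, so the *NARS1* probes disagreed in sign on array 4. The smallest adjusted p of these *NARS1* probes was 0.107. *CARS1*, *FARSB*, *HARS1* and *FARSA* averaged 0.16, 0.13, 0.04 and -0.02.

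By compartment, the medians of the means were 0.04 for the 18 cytosolic genes and 0.10 for the 11 mitochondrial genes, beside 0.02 for all named genes. The single arrays differed more than these medians. On arrays 1 to 4 the cytosolic median was 0.09, 0.24, 0.03 and -0.35, the mitochondrial median 0.22, 0.08, -0.03 and -0.06, and the median of all named genes 0.02, 0.03, 0.00 and 0.05. Array 4 thus gave the lowest cytosolic median, and the cytosolic genes lay 0.40 below the named genes there. On that array 16 of 18 cytosolic genes were below 0 at their brightest probes (88.9%, against 43.5% of named genes), all but *RARS1* and *WARS1*. Below 0 on arrays 1 to 3 were 6, 6 and 8 of 18. The mitochondrial genes were below 0 in 2, 5, 6 and 8 of 11. This contrast between arrays was noticed after the values were seen and carries no test. Without array 4 the cytosolic median was 0.13 in place of 0.04, and the mitochondrial median 0.13 in place of 0.10.

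Within the cytosolic genes, the complex and the rest were alike on array 4, with medians of -0.31 (7 genes) and -0.38 (11 genes) there, and their medians of the means were 0.05 and 0.04. By structural class, the medians on array 4 were -0.19 for the 8 class I genes and -0.51 for the 10 class II genes, and the medians of the means were 0.10 and -0.06. The spread between arrays was wider for the cytosolic genes, with a median SD of 0.32, than for the mitochondrial genes (0.26) and for all named genes (0.23), as a description without a test.

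**Figure D2:**
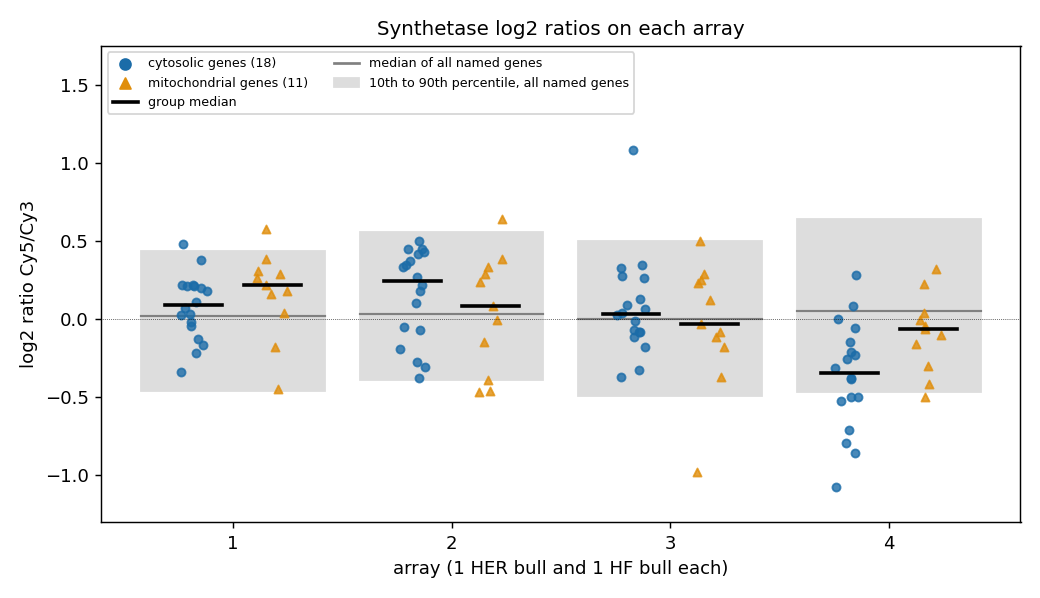
Log2 ratios of Cy5 over Cy3 (vertical axis) of the cytosolic and mitochondrial synthetase genes on arrays 1 to 4, 1 point per gene with a black line at the median, beside the median (grey line) and the 10th to 90th percentile (grey band) of all named genes. The cytosolic median is 0.24 on array 2 and -0.35 on array 4, while that of all named genes lies between 0.00 and 0.05.

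The channels were then looked at separately, each gene as its log2 level minus its own mean over the 8 samples after between-array scaling. In the Cy3 sample of array 4, 16 of 18 cytosolic genes were above their own mean, with a median of 0.23, against 42% of named genes with a median of -0.05. In the other 7 samples 3 to 11 of the 18 were above it, and the medians lay between -0.15 and 0.12. In the Cy5 sample of array 4 the cytosolic median was -0.10 and 7 of 18 genes were above their mean. The mitochondrial genes did not share the Cy3 value, with a median of -0.06 and 4 of 11 above their mean. *SARS1* stood at 0.71, *GARS1* at 0.67, *TARS1* at 0.54 and *AARS1* at 0.50 in that Cy3 sample. Array 4 also had the highest median Cy3 signal, 138 against 77 to 108. In the same sample all 6 fibroblast markers were above their own mean, with a median of 1.06 against -1.11 to 0.68 in the other samples, led by *COL3A1* at 1.43, *COL1A1* at 1.31 and *LUM* at 1.22. Only 2 of the 6 were highest there, and *COL1A1* stood at 1.61 in the Cy3 sample of array 1. In the Cy3 sample of array 4 all 3 blood and 5 macrophage markers were below their own mean. Above it were 3 of 7 muscle fibre markers, with *MB* at -0.64, and 3 of 4 endothelial and 3 of 4 adipocyte markers (medians 0.21 and 0.07). The part of the signal and of these cells in the synthetase values was not tested.

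*WARS1* followed the samples differently. Its level was highest in the Cy5 sample of array 3, at 0.89, and lowest in both samples of array 2, at -0.63 in Cy5 and -0.96 in Cy3. *CARS2* was highest in the Cy3 sample of array 1, at 0.65, and lowest in the Cy5 sample of array 3, at -0.70.

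**Figure D3:**
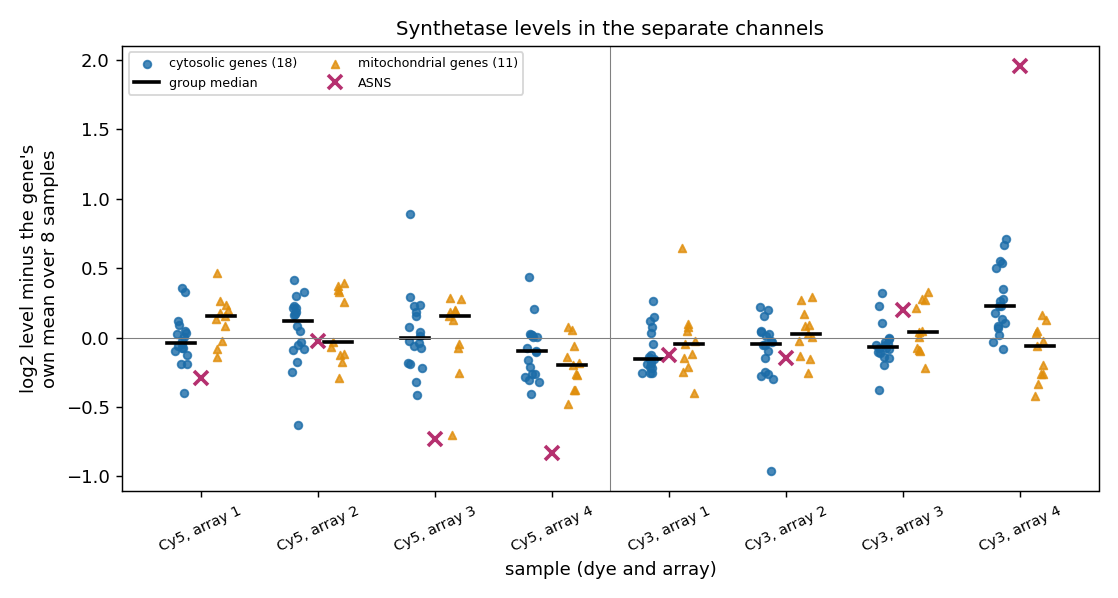
Level of synthetase genes in each of the 8 samples (Cy5 and Cy3 of arrays 1 to 4) as the log2 difference from the gene's own mean over the 8 samples, with a black line at each group's median and a cross for *ASNS*, a gene of the amino acid response. In the Cy3 sample of array 4 the median of the 18 cytosolic genes is 0.23 and that of the 11 mitochondrial genes is -0.06.

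Several probes per gene gave a further measure of reliability. Of 24 genes with more than 1 tested probe, 8 had probes whose means differed in sign, namely *AARS2*, *LARS1*, *QARS1*, *MARS1*, *SARS1*, *TARS2*, *HARS2* and *WARS2*. Some of these probes were dim, with mean log2 intensities of 6.43 (*AARS2*, below 0), 6.41 (1 of *TARS2*) and 6.35 (second of *HARS2*). The last was well above background in Cy3 on only 2 arrays. The low *LARS1* probe was brighter, at 7.95. For *MARS1* (-0.02 to 0.02) and *QARS1* (-0.02 to 0.07) the means differed in sign only around 0. An unadjusted p under 0.05 was reached by 15 of the 72 tested synthetase probes, against 24.7% of all tested probes. On array 4, 38 of 47 cytosolic probes (80.9%) and 20 of 25 mitochondrial probes (80%) were below 0, with medians of -0.31 and -0.10. The mitochondrial share by probes was thus near the cytosolic one, while the size of the deviation was smaller.

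**Figure D4:**
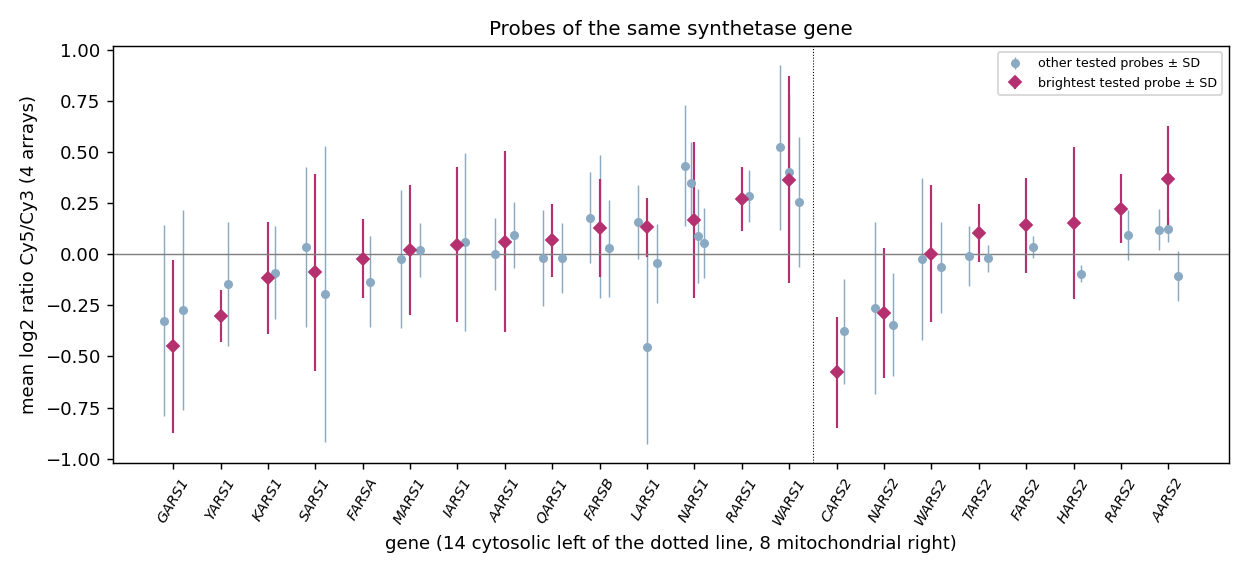
Mean log2 ratio of Cy5 over Cy3 of every tested synthetase probe, by gene, for 22 genes with more than 1 such probe, with bars of 1 SD over the 4 arrays and the brightest probe of each gene as a diamond. The probes of *LARS1* range from -0.45 to 0.16, and those of *WARS1* all lie above 0, from 0.25 to 0.52.

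The list of partners and editing factors of the synthetases, which also holds *TARS3*, was measured for 11 of 15 genes, of which 1 was higher and 0 lower, beside 2.91% and 1.52% of named genes. *TARS3* had a mean of 0.03 ± 0.10. The one called was *DTD1*, which removes D-amino acids from tRNA, with 0.62, 0.44, 0.71 and 0.69 on arrays 1 to 4 (mean 0.62 ± 0.12, 1.53-fold, adjusted p 0.0331 in limma). *DTD1* and *EEF1E1* are also in the study's own gene lists from these samples, so this list is not independent evidence. Only 1 of the 3 *DTD1* probes was called although all had means from 0.40 to 0.62. Omitting any 1 array ended its call, with adjusted p values of 0.0671 to 0.104. Those fits called only 0.0212% to 0.382% of named genes, against 4.42% with all arrays, so most calls were lost there. The *DTD1* mean was 0.58 to 0.67 in those fits and between 0.48 and 1.19 over 15 alternatives. The scaffold genes of the complex did not pass, with *EEF1E1* at -0.37 ± 0.19 (adjusted p 0.093), *AIMP1* at -0.18 and *AIMP2* at -0.12. The median of these 11 genes was -0.04.

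Genes for making, processing and exporting tRNA were measured for 21 of 30, with a median of 0.05. In either direction 0 were called, beside 2.91% of named genes called higher and 1.52% called lower. *POLR3A*, the largest subunit of the RNA polymerase that transcribes tRNA genes, had the smallest adjusted p of the list, 0.0554, at a mean of 0.49 ± 0.18, but its 5 probes had means from -0.08 to 0.49.

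The genes of the amino acid response were measured for 22 of 25, with 0 higher, 1 lower (beside 2.91% and 1.52% of named genes) and a median of -0.06. The gene that was lower was *SLC3A2*, the heavy chain of amino acid transporters, with -1.67, -0.55, -1.97 and -1.05 (mean -1.31 ± 0.64, adjusted p 0.0491), and 1 of its 2 probes was called. *SLC3A2* is likewise in the study's own lists. This call too was lost without any 1 array, with adjusted p values of 0.0871 to 0.121. Those fits called at most 0.382% of named genes, against 4.42% with all arrays. The *SLC3A2* mean was -0.65 with median centring. At *SLC38A2*, a transporter of neutral amino acids, the brightest probe averaged -0.38 and was not called, while 1 of 5 probes was. *ATF4* averaged 0.14 ± 0.26, and its other probes -0.36 and -0.17. The list was split in sign, with means above 0 for 10 of the 22 genes and below 0 for 12. On every array 5 genes were above 0 and 5 below it, against 20.4% and 13.8% of named genes. *ATF3* averaged 2.06 ± 2.03, *DDIT4* 1.29 ± 0.76, *DDIT3* 0.86 ± 0.44, *NUPR1* 0.70 ± 0.59 and *TRIB3* 0.34 ± 0.10. None of these was called, and their smallest adjusted p in limma was 0.0566, for *DDIT3*.

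*ASNS*, asparagine synthetase and a standard target of *ATF4*, is no aminoacyl-tRNA synthetase but had the same low array as the cytosolic members. Its ratios were -0.17, 0.12, -0.93 and -2.78, a mean of -0.94 ± 1.31 (adjusted p 0.285), and its second probe gave -2.19 on array 4. In the Cy3 sample of array 4 *ASNS* stood 1.95 above its own mean, against -0.83 to 0.20 in the other 7 samples. The other response genes were mixed there. Of all 22, 15 were above their own mean in that sample, with a median of 0.16, and 4 had their highest level there. *PYCR1*, of proline synthesis, stood at 0.88, while *DDIT4*, *DDIT3*, *NUPR1* and *TRIB3* stood at -0.73, -0.56, -0.42 and -0.34. *PHGDH*, of serine synthesis, stood at 0.38 there but at 0.76 in the Cy5 sample of array 1. These genes were picked after their values were seen.

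Of the alternatives tried, only median centring in place of loess gave calls among the synthetase genes. With each array centred on its median, 14 of 29 synthetase genes were called, all higher in Cy5, which is 48.3% of the family against 43.7% of named genes called higher. That scaling raised the median of all named genes to 0.43 and of all tested probes to 0.24, and the cytosolic and mitochondrial medians to 0.60 and 0.51. On array 4 the cytosolic genes lay 0.30 below the named genes under median centring and 0.40 below them after loess. On arrays 1 to 3 they lay above them under both, by 0.19 to 0.35 and by 0.03 to 0.21.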

How the data were processed

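Intensity values were deposited in the scanner output of Agilent Feature Extraction 10.7.3.1, with median signals and local backgrounds per spot. The deposited log10 ratios of the series table were those of Cy5 over Cy3 that the scanner software wrote from its background-subtracted and dye-normalized signals (largest difference 0), and served only as an alternative. Median signals were corrected by normexp (offset 50) and normalized by loess within each array, with control and outlier spots at weight 0. The 7 to 14 outlier spots of an array gave no value, and replicate spots were averaged. Probes were tested when the same channel was well above background on all 4 arrays and at least 3 arrays had a value. The log2 ratio was compared with 0 by lmFit and eBayes (limma 3.58.1, R 4.3.3, data.table version 1.17.8, statmod 1.5.0), two-sided and Benjamini-Hochberg adjusted, and called at an adjusted p under 0.05. There was no batch to block. Levels per channel were scaled with Aquantile. Symbols came from the RefSeq gene table of assembly ARS-UCD2.0, matched by accession for 23492 probes.

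Each gene was represented by its brightest tested probe. Values per array were given for called genes, the 12 genes with the smallest p and genes whose probes disagreed in sign, except that 2 members are not reported by name here (10 of the 12 are given) and enter only the counts and medians. *AARS1* and *NARS1* were given by array in addition, although they meet none of these rules. The members and lists were chosen with earlier results of these data known. The limma fit alone was tried on simulated log2 ratios with independent errors. That simulation held no normalization step and no dye effect, so it does not bear on either. Alternatives covered the background correction, the signal (scanner-processed, series table), median centring, the filter on dim probes (none, or both channels above background), the test (robust eBayes with an intensity trend, a fit by separate channels, the methods' t-test), averaging a gene's probes, and omitting each array. A planned search of promoters for an ATF4 motif was not run, and no promoter sequence was used here. The number of arrays limits the precision.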

Additional observations from a re-analysis of the deposited data

Results flagged for a closer look

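In 1 of 27 synthetase genes, *CARS2*, 1 array lay apart from the other 3, by the gap to its nearest neighbour over the whole range (Dixon's criterion). Chance flags about 1 in 20 genes. It was array 3, at -0.98 against -0.47 to -0.41 on the others, at the brightest probe. The other *CARS2* probe had -0.07, -0.27, -0.63 and -0.55, with array 4 near array 3. *CARS2* did not pass the test.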

How the results depend on the processing

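Of 32606 probes 1078 were called (59.3% of them higher in Cy5), against 10724 with median centring (93.4% higher), 1666 with an intensity trend and robust prior, 3220 with the separate-channel fit, 0 with the t-test, and 5 to 115 with 1 array left out. Synthetase genes called numbered 14 with median centring and 0 under every other alternative, where the closest adjusted p values were 0.0517 for *YARS1* (separate channels) and 0.0539 for *CARS2* (stricter filter). The cytosolic and mitochondrial medians were 0.60 and 0.51 with median centring, and -0.05 to 0.13 and 0.04 to 0.13 with 1 array left out. Centring turned *CARS2* to 0.066, *YARS1* to 0.084, *GARS1* to 0.23, *TARS1* to 0.25, *NARS2* to 0.17, *KARS1* to 0.54, *SARS1* to 0.61, *MARS2* to 0.25, *FARSA* to 0.58 and *SARS2* to 0.46. *WARS2* turned to -0.020 without background correction, -0.014 with plain subtraction, -0.085 with scanner-processed signals and the series table and -0.029 with the mean of probes; *IARS1* to -0.025 and *MARS1* to -0.015 with both of these; *LARS1* to -0.052 with the mean of probes. With 1 array left out, means crossed 0 for *AARS1* (-0.067 to 0.25), *WARS2* (-0.10 to 0.13), *HARS2* (-0.011 to 0.26), *HARS1* (-0.030 to 0.082), *MARS2* (-0.10 to 0.018), *IARS1* (-0.064 to 0.23), *MARS1* (-0.12 to 0.13), *SARS2* (-0.11 to 0.085), *KARS1* (-0.18 to 0.018), *SARS1* (-0.26 to 0.12) and *FARSA* (-0.10 to 0.056). Beyond the synthetases, and chosen after the data were seen, *DTD1* was called under 8 and *SLC3A2* under 7 of 15 alternatives, *CD5L* and *COL3A1* under 11 and *COL1A1* under 10. The cause of these changes was not tested. The ratio within an array already pairs 1 HER with 1 HF sample, so the test itself is paired and there was no further replicate block to fit.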
